A study of Homo sapiens with 2 samples.

Results

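The genes described are the platelet-derived growth factor (PDGF) and vascular endothelial growth factor (VEGF) ligands and receptors, 10 of the 24462 gene symbols counted in the series. They were chosen by name as 4 PDGF ligand genes (PDGFA, PDGFB, PDGFC and PDGFD), 1 PDGF receptor gene (PDGFRB), 4 VEGF ligand genes (VEGFA, VEGFB, VEGFC and PGF) and 1 VEGF receptor gene (FLT1). The choice of these genes was made with earlier results of these data known. Their messenger RNA was measured in RT-R-MDA-MB-231 cells and in the MDA-MB-231 cells they came from. MDA-MB-231 is an established human line of triple negative breast cancer, which lacks the estrogen and progesterone receptors and has no HER2 amplification. The derivative RT-R-MDA-MB-231 is resistant to radiotherapy and was made with X-ray doses of 2 Gy each, up to 50 Gy in all. Both lines grew in the same medium with 10% fetal bovine serum and antibiotics. Each line was represented by 1 library made with a 3' tag kit, which counts the ends of polyadenylated transcripts, and whether the resistant line is 1 clone is not given in the sources used here.

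PDGF ligands are secreted dimers that bind the receptor tyrosine kinases PDGFRA and PDGFRB, which drive growth and migration of mesenchymal cells, pericytes and fibroblasts. The A and C chains act mainly through PDGFRA, the D chain mainly through PDGFRB, and the B chain through both. VEGFA is the main factor that makes blood vessels sprout and binds the receptors FLT1 and KDR. VEGFB and placental growth factor (PGF) bind FLT1, and VEGFC acts through FLT4 and KDR on lymphatic vessels. Carcinoma cells often secrete these ligands while the receptors sit mostly on vessel wall and connective tissue cells.

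Because each line has a single library, differences between lines could not be checked against replicates and carry no p-value. The RT-R library held 10014804 counts and the parental library 9255008. Levels are in CPM, counts per 1000000 of a library after scaling by the trimmed mean of M-values (TMM), and ratios are RT-R over parental. Brackets after a ratio hold its 95% interval for counting error within these libraries. Differences between cultures lie outside these intervals, and PCR copies of a molecule count as separate reads. Genes reaching 20 counts in either library are called measured. A measured gene was called higher or lower when its log2 ratio passed 2-fold and its interval lay on one side of equal expression. The median absolute log2 ratio over 12644 measured genes was 0.34. The triple negative line markers VIM, CD44, CAV1, AXL and MSN were abundant, with a summed 3286 CPM in RT-R and 3284 in parental cells. Singly they differed, with ratios of 0.650 for MSN, 0.745 for CAV1, 1.10 for CD44, 1.24 for AXL and 1.76 for VIM. None of them was called. ESR1 had 1 count in RT-R cells and 0 in parental cells, and PGR had 0 in both. ERBB2, which encodes HER2, was present at 174 counts in RT-R and 230 in parental cells. Other genes expected to be low in this line were also present. GATA3 had 113 counts in RT-R and 152 in parental cells, CDH1 had 68 and 32, and EPCAM had 26 and 15, and none was called.

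In RT-R cells, 2 PDGF ligand genes, 1 VEGF ligand gene and the VEGF receptor gene were called higher, and the PDGF receptor gene was called lower. PDGFB had a ratio of 7.69 (4.41 to 14.5), PDGFA of 2.52 (2.22 to 2.87) and PGF of 2.16 (1.60 to 2.95). FLT1 had a ratio of 11.7, on few counts (2.92 to 101). PDGFRB was 2.07-fold lower (1.28 to 3.41). The most abundant gene of the family, VEGFA, was 1.28-fold lower (1.22 to 1.34) and was not called. Of the 10 genes, 9 were measured, 4 were called higher and 1 lower, where 6.89% of all measured genes were called higher and 3.97% lower. At a 1.5-fold limit 4 were called higher and 2 lower, PDGFRB and PDGFC, where 13.7% of measured genes were called higher and 11.9% lower. At 4-fold, PDGFB and FLT1 were called higher and 0 lower, against 2.31% and 0.53%. In bulk RNA, fewer cells carrying a transcript and less of it per cell cannot be told apart. FLT1 and PDGFB passed the count minimum only through the RT-R library, where they are high, and PDGFD did not pass it. The count of members called is therefore a description and supports nothing about the family.

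**Figure D1:**
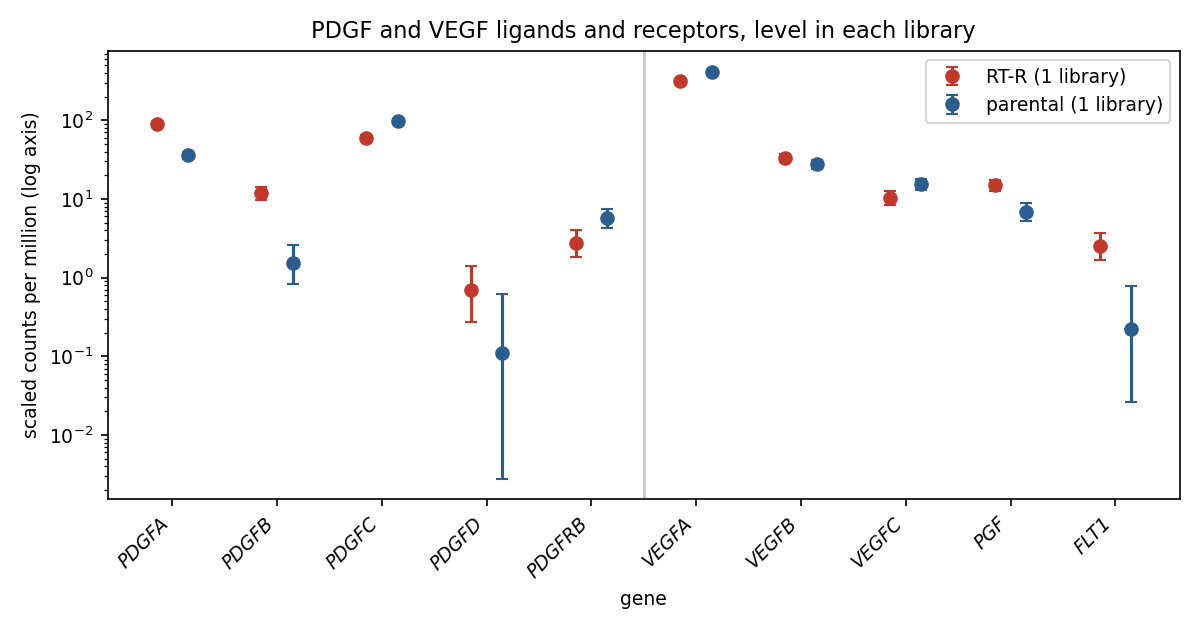
Level of each gene in CPM on a log axis, RT-R in red and parental in blue, 1 library each, with 95% Poisson intervals for counting error. PDGFA, PDGFB, PGF and FLT1 lay higher in RT-R, and PDGFRB, PDGFC, VEGFA and VEGFC lower, in each case with intervals that do not touch.

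The start regions of the genes that were called are shown because PDGFA, PGF and FLT1 lay higher together and PDGFRB lay lower. RefSeq promoter entries of build GRCh38.p14 matched 7 of the 10 genes, and those of PDGFB, PDGFC and VEGFA were not matched. Each line gives the 250 bases before the annotated start, 5′ to 3′ on the minus strand. The windows are chr7:520227-520476 for PDGFA, chr14:74955765-74956014 for PGF, chr13:28495129-28495378 for FLT1 and chr5:150155846-150156095 for PDGFRB. Capitals mark matches on either strand to the core of the hypoxia response element (ACGTG or GCGTG), the GC box (GGGCGG) and the TATA box (TATAAA).
PDGFA: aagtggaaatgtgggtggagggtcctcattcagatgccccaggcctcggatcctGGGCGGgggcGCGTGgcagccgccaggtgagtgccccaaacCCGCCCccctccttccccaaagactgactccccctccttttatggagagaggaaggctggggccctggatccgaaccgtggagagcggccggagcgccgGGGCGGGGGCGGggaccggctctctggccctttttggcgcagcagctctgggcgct
PGF: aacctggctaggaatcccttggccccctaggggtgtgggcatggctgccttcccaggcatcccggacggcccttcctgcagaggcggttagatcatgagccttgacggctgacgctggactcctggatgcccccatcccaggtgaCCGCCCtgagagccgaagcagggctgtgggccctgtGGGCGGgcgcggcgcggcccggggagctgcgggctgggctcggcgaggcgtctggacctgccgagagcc
FLT1: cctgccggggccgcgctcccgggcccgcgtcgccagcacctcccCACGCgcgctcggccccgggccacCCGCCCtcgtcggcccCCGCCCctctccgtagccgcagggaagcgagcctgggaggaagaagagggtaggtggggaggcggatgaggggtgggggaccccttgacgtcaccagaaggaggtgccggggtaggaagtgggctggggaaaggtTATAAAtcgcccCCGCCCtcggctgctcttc
PDGFRB: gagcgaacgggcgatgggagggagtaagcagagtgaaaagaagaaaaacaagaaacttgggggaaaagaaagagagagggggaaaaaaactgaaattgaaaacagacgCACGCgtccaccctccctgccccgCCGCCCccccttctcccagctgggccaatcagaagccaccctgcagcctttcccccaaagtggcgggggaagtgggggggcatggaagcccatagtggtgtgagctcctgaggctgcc
The PDGFA window held 4 GC boxes and 1 hypoxia core, and the FLT1 window 3 GC boxes, 1 hypoxia core and 1 TATA box. The PGF window held 2 GC boxes, and the PDGFRB window 1 GC box and 1 hypoxia core. No base lay in matches to different motifs. Among 35116 windows of the same length, 42.6% held a GC box, 43.2% a hypoxia core and 10.7% a TATA box. The windows of the higher genes were 68.8% G and C for PDGFA, 70.8% for PGF and 73.2% for FLT1, against 58.4% for PDGFRB and a median of 58% over all windows. The matched genes that were not called also lay above that median, with 82.8% for VEGFB, 74% for VEGFC and 69.2% for PDGFD. A high share was thus not particular to the higher genes. Of these uncalled genes, the VEGFB window held 6 GC boxes and 1 hypoxia core. The VEGFC window held 2 GC boxes and 1 hypoxia core, and the PDGFD window 1 GC box. GC boxes and hypoxia cores were thus not particular to the called genes either. A match is a run of letters and not a shown binding site.

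PDGFA encodes the A chain. It had 918 counts in RT-R and 326 in parental cells, or 90.3 and 35.8 CPM. Its log2 ratio of 1.33 was above that of 95.5% of the measured genes. The median of its 16 measured neighbours near the end of chromosome 7 was -0.32, so PDGFA stood 1.66 above its neighbourhood on the log2 scale. PDGFB encodes the B chain, which binds both PDGF receptors and whose viral relative is the v-sis oncogene. It had 120 counts in RT-R and 14 in parental cells, or 11.8 and 1.54 CPM, and its log2 ratio of 2.90 was above that of 98.8% of measured genes. The 30 neighbours of PDGFB on chromosome 22 had a median of 0.29, which left 2.61. GENCODE release 29 places genes on the opposite strand over PDGFB, PDGFC, PDGFD, VEGFA and VEGFC, and whether the counting used strand is not given, so reads of such partners may be among their counts.

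PDGFC and PDGFD encode ligands that are secreted inactive and need a protease to remove their CUB domain. PDGFC had 602 counts in RT-R and 891 in parental cells, or 59.2 and 97.7 CPM. It was 1.65-fold lower (1.49 to 1.83), short of the 2-fold limit, with a log2 ratio of -0.72 that exceeded 8.47% of measured genes. Its neighbours on chromosome 4 had a median of -0.10, which left -0.62. PDGFD had 7 counts in RT-R and 1 in parental cells. Its ratio of 6.28 had an interval that included equal expression (0.806 to 283), so no difference was detectable at this depth.

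The ratios of the PDGF ligand genes ran from 0.606 for PDGFC to 7.69 for PDGFB. Their summed level was 162 CPM in RT-R and 135 in parental cells, a ratio of 1.20 (1.11 to 1.29). PDGFA held 55.7% of the PDGF ligand counts in RT-R cells (exact binomial 95% interval 53.3 to 58.2) and 26.5% in parental cells (24.0 to 29.02). PDGFC held 36.6% in RT-R (34.2 to 38.9) and 72.3% in parental cells (69.7 to 74.8). PDGFB held 7.29% in RT-R (6.08 to 8.65) and 1.14% in parental cells (0.623 to 1.90). The most abundant PDGF ligand gene was thus PDGFA in the RT-R library and PDGFC in the parental library.

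Ratios between genes of 1 library do not depend on how the libraries are scaled. RT-R cells had 1.52 PDGFA counts per PDGFC count and parental cells 0.366, a 4.17-fold difference (3.53 to 4.92). For PDGFB per PDGFC the values were 0.199 in RT-R and 0.0157 in parental cells, a 12.7-fold difference (7.18 to 24.1). These comparisons set each ligand against the most abundant ligand of its family in the parental library and were chosen after the values were seen. The counts are of transcript ends and were not divided by gene length, since a transcript gives about 1 tag whatever its length. Levels of different genes still carry differences in priming and mapping.

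**Figure D2:**
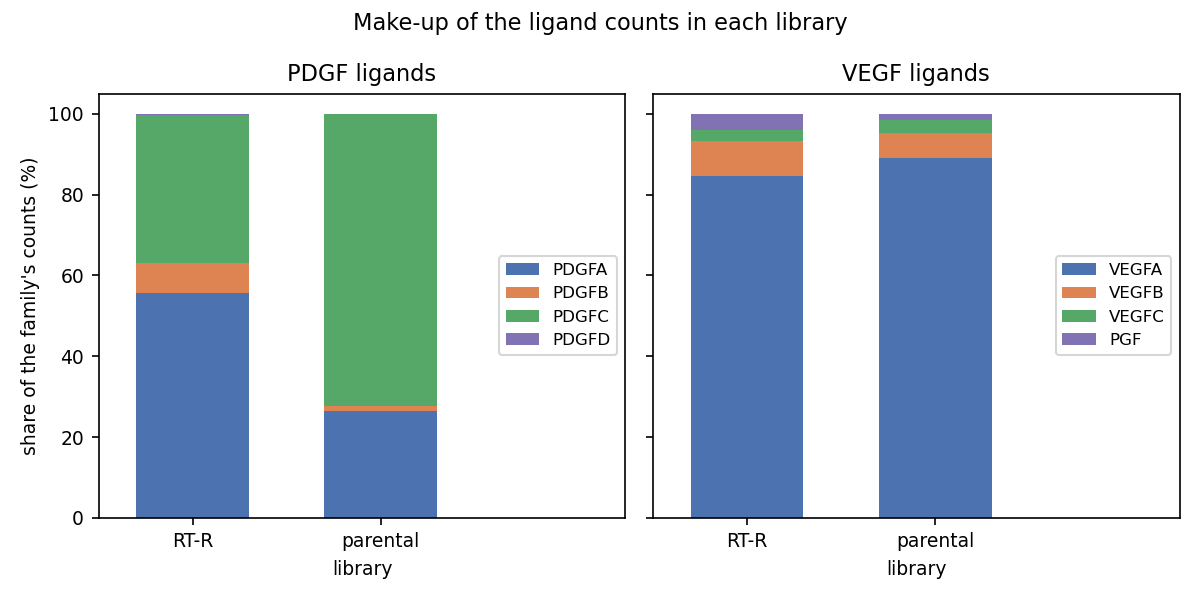
Share of the summed ligand counts (%) held by each PDGF ligand gene (left) and each VEGF ligand gene (right), RT-R bar left of the parental bar, 1 library each. PDGFA took 55.7% of the PDGF ligand counts in RT-R and 26.5% in parental cells, while VEGFA took 84.5% and 89.1% of the VEGF ligand counts.

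PDGFRB, the receptor tyrosine kinase for the B and D chains, was rare in both lines. It had 28 counts in RT-R and 52 in parental cells, or 2.75 and 5.70 CPM, a log2 ratio of -1.04. With the libraries scaled by their total counts the log2 ratio was -0.994, and the gene was no longer called, nor was it with upper quartile scaling. Its 30 neighbours on chromosome 5 had a median of -0.05, which left -0.99. The other PDGF receptor gene, PDGFRA, had 0 counts in both libraries, which allows up to 0.295 CPM in RT-R and 0.329 in parental cells. PDGFRL, a gene for a receptor-like protein without a kinase, had 19 counts in RT-R and 21 in parental cells. Both lines thus held many more ligand than receptor tags, with 1647 PDGF ligand counts in RT-R and 1232 in parental cells.

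PDGFRB is also a marker of pericytes, so other genes of that cell type were read beside it. Of 10 pericyte and smooth muscle markers, 6 were measured, 2 were called higher and 0 lower. The shares called over all measured genes were 6.89% higher and 3.97% lower. Their summed level was 48.8 CPM in RT-R and 22.8 in parental cells. CSPG4, the proteoglycan NG2, had 269 counts in RT-R and 74 in parental cells, and CNN1, smooth muscle calponin, had 20 and 2. CNN1 passed the count minimum only through the RT-R library, where it is high, so the count of markers called is a description. DES, which encodes desmin, had 1 count in RT-R and 0 in parental cells, and KCNJ8 had 0 and 2. ACTA2 (62 counts in RT-R, 29 in parental cells), MYH11 (78 and 42) and NOTCH3 (13 and 2) lay higher in RT-R and were not called. RGS5 (21 and 22), ABCC9 (26 and 27) and HIGD1B (6 and 8) had slightly fewer counts in RT-R and were not called. CSPG4 alone gave 269 of the 496 RT-R counts of the list and 74 of the 208 parental ones. The called markers lay higher in RT-R and PDGFRB lower, and the part of these markers in the PDGFRB result was not tested.

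**Figure D3:**
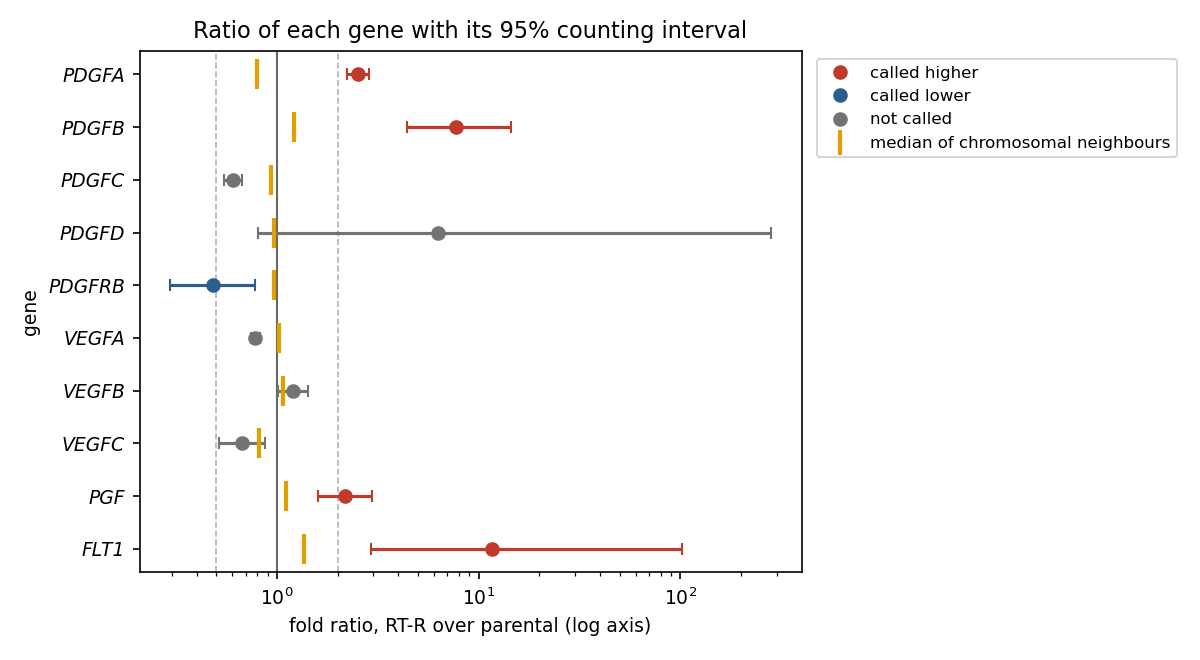
Fold ratio of RT-R over parental on a log axis for each gene with its 95% counting interval. Red is called higher, blue lower, grey not called, dashed lines mark 2-fold, and yellow ticks give the median of the measured chromosomal neighbours, which ran from a log2 ratio of -0.32 for PDGFA to 0.44 for FLT1.

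VEGFA was the most abundant of the 10 genes in both libraries, with 3247 counts in RT-R and 3722 in parental cells, or 319 and 408 CPM. These levels exceeded 95.9% of measured genes in RT-R and 97.0% in parental cells. The log2 ratio was -0.35, close in size to the median absolute ratio of all measured genes, and 24.4% of measured genes had a lower one. Set against its neighbours on chromosome 6, whose median was 0.03, it was -0.38. VEGFB, a FLT1 ligand with little vessel-sprouting activity, had 337 counts in RT-R and 252 in parental cells, a ratio of 1.20 (1.02 to 1.42). VEGFC, the lymphatic vessel factor, had 105 counts in RT-R and 140 in parental cells and was 1.49-fold lower (1.15 to 1.93). None of these 3 genes reached the 2-fold limit. All 3 intervals excluded equal expression, and VEGFC lay on chromosome 4 among neighbours with a median log2 ratio of -0.30, which left -0.27.

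PGF, placental growth factor, was the 1 VEGF ligand gene that was called. It had 152 counts in RT-R and 63 in parental cells, or 14.95 and 6.91 CPM, a log2 ratio of 1.11 above that of 94.0% of measured genes. Its 30 neighbours on chromosome 14 had a median of 0.15, which left 0.95, just short of 2-fold. RT-R cells had 0.0468 PGF counts per VEGFA count and parental cells 0.0169, a 2.77-fold difference (2.04 to 3.79). VEGFB per VEGFA differed 1.53-fold (1.29 to 1.82), with 0.104 in RT-R and 0.0677 in parental cells. VEGFC per VEGFA was 0.0323 in RT-R and 0.0376 in parental cells, and the ratio of these, 0.860, had an interval that included 1 (0.658 to 1.12).

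The summed VEGF ligand level followed VEGFA, at 378 CPM in RT-R and 458 in parental cells, 1.21-fold lower (1.16 to 1.27). Without VEGFA, the other VEGF ligand genes summed to 58.4 CPM in RT-R and 49.9 in parental cells, a ratio of 1.17 (1.03 to 1.33). VEGFA held 84.5% of VEGF ligand counts in RT-R (83.4 to 85.7) and 89.1% in parental cells (88.1 to 90.0). PGF held 3.96% in RT-R (3.36 to 4.62) and 1.51% in parental cells (1.16 to 1.93).

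FLT1, the receptor tyrosine kinase VEGFR1, also gives rise to a soluble form that binds VEGF without signalling. It had 26 counts in RT-R and 2 in parental cells, or 2.56 and 0.219 CPM, a log2 ratio of 3.27. It lies on chromosome 13, where 227 other measured genes had a median log2 ratio of 0.54, and its 30 neighbours had a median of 0.44. Set against those neighbours, FLT1 had a log2 ratio of 2.83. GENCODE release 29 lists 9 protein-coding transcripts of FLT1 with 8 different ends spread over 98700 bases. A single count per gene cannot tell the soluble form from the membrane receptor.

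The other VEGF receptor genes were near 0. KDR, the main signalling receptor of VEGFA, had 4 counts in RT-R and 0 in parental cells. With 3 counts in place of the parental 0 it was at least 1.20-fold higher, but the counting interval of its ratio began at 0.592, so no difference was detectable at this depth. FLT4, the receptor for VEGFC, had 0 counts in both, and FIGF, the gene of the ligand VEGFD, had 1 in each. The coreceptor NRP1 had 660 counts in RT-R and 853 in parental cells and was 1.44-fold lower (1.30 to 1.60). NRP2 had 208 and 156 counts, a ratio of 1.20 (0.967 to 1.48). Of these 7 remaining family genes, NRP1, NRP2 and PDGFRL were measured, and 0 were called higher or lower. Over all measured genes the calls were 6.89% higher and 3.97% lower.

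FLT1 is mostly an endothelial gene, so endothelial markers were read beside it. Of 10 markers, 4 were measured, 1 was called higher and 1 lower, and the summed level was 89.9 CPM in RT-R and 67.8 in parental cells. For all measured genes the shares called were 6.89% higher and 3.97% lower. TIE1, an endothelial receptor kinase, had 48 counts in RT-R and 0 in parental cells, at least 14.3-fold higher with 3 counts put in place of the parental 0. The counting interval of its ratio began lower, at 11.2. TIE1 passed the count minimum only through the RT-R library, where it is high, so the count of markers called is a description. PECAM1, the adhesion protein CD31, had 50 counts in RT-R and 223 in parental cells and was 4.97-fold lower (3.65 to 6.90). ROBO4, a guidance receptor of vessels that was not called, had 726 counts in RT-R and 338 in parental cells. EGFL7, a secreted vessel protein that was not called, had 85 counts in RT-R and 55 in parental cells. The remaining 6 markers had at most 2 counts in either library. CLDN5 and TEK had 0 counts in both, VWF and EMCN had 1 in each, CDH5 had 1 in RT-R and 0 in parental cells, and ERG had 2 and 0. The part of these genes in the FLT1 result was not tested. Of 5 blood cell markers, PTPRC, CD3E and CD79A were at 0 in both, and the list summed to 48.3 CPM in RT-R and 39.5 in parental cells. CD68, which was not called, gave 452 of the 491 RT-R counts of the list and 346 of the 360 parental ones. CD14 had 39 counts in RT-R and 14 in parental cells and was called higher, and it too passed the count minimum only through the RT-R library.

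**Figure D4:**
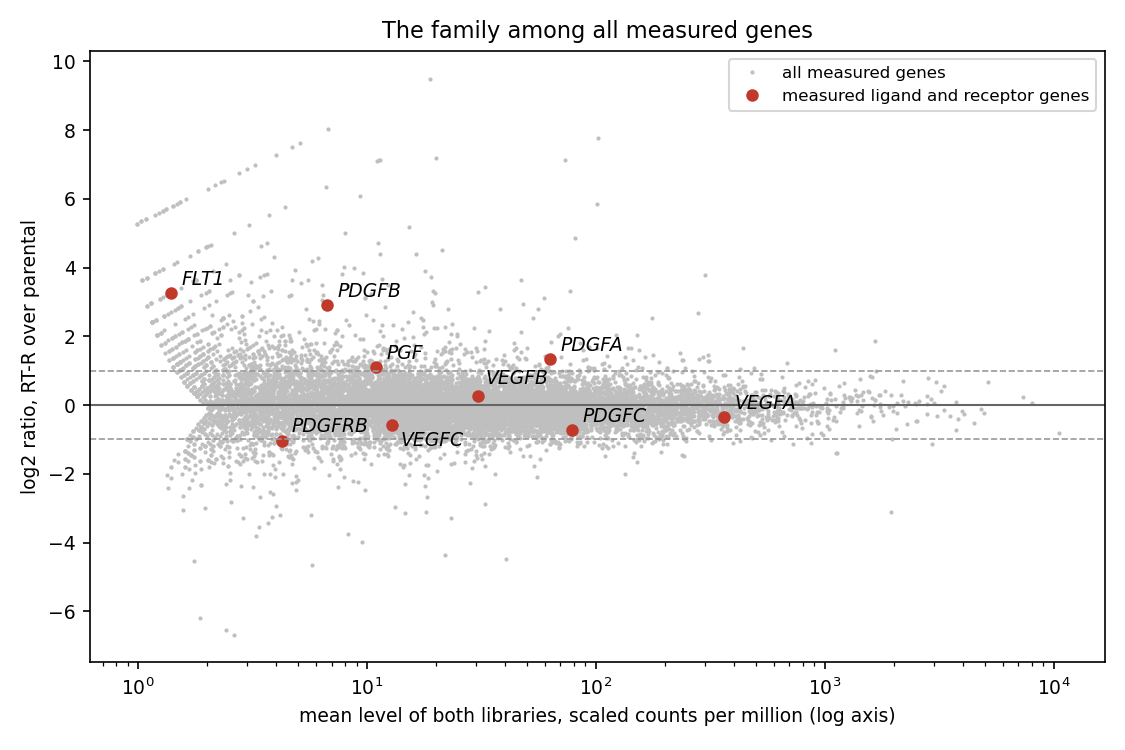
Log2 ratio of RT-R over parental against the mean level of both libraries in CPM (log axis) for 12644 measured genes in grey and the 9 measured ligand and receptor genes in red. FLT1 and PDGFB lie at 3.27 and 2.90 among genes of low level, where ratios spread widely, while VEGFA at high level lies at -0.35.

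The order of levels below VEGFA differed between the libraries. In RT-R cells it ran VEGFA, PDGFA, PDGFC, VEGFB, PGF, PDGFB, VEGFC, PDGFRB, FLT1 and PDGFD. In parental cells it ran VEGFA, PDGFC, PDGFA, VEGFB, VEGFC, PGF, PDGFRB, PDGFB, FLT1 and PDGFD. By their Poisson intervals, PGF and PDGFB, PDGFB and VEGFC, and PDGFRB and FLT1 overlapped as neighbours in the RT-R order. In the parental order PGF overlapped PDGFRB, and FLT1 overlapped PDGFD. PDGFB stood above PDGFRB in RT-R cells and below it in parental cells.

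Proteases that activate the ligands did not share a direction. Of 14 genes, 7 were measured, 0 were called higher and 1 lower, with a median log2 ratio of -0.21 against -0.01 over all measured genes. Calls over all measured genes were 6.89% higher and 3.97% lower. With no count minimum the median changed sign, to 0.16. That setting added PCSK5 (11 counts in RT-R, 0 in parental cells), PCSK6 (12 and 0), PLG (6 and 4) and ADAMTS2 (3 and 1). It also added ADAMTS3 (3 and 14) and ADAMTS14 (7 and 11), which lay lower in RT-R. PLAT, tissue plasminogen activator, which can cleave PDGFC, had 641 counts in RT-R and 1211 in parental cells and was 2.11-fold lower (1.91 to 2.32). PLAU, which can cleave PDGFD, and FURIN, which processes several of these ligands, had log2 ratios of -0.21 and 0.16 and were not called. CCBE1, a cofactor of VEGFC cleavage, had 18 counts in RT-R and 30 in parental cells and was not called.

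Genes for the adaptors and enzymes that receptors recruit were nearly all expressed. Of 38, 36 were measured, 1 was called higher and 0 lower, and their median log2 ratio was 0.16. Here and for the regulators below, the shares over all measured genes were 6.89% called higher and 3.97% lower. SH2D2A, which encodes an adaptor that binds KDR, had 86 counts in RT-R and 22 in parental cells, a ratio of 3.51 (2.17 to 5.88). Among 18 phosphatases and negative regulators, 15 were measured, 1 was called higher and 2 lower, with a median of -0.18. The ERK phosphatase gene DUSP6 had 2578 counts in RT-R and 4941 in parental cells and was 2.14-fold lower (2.04 to 2.24). SPRY2, a feedback inhibitor of receptor kinases, had 267 counts in RT-R and 511 in parental cells, which is 2.13-fold lower (1.84 to 2.48). DUSP1, a phosphatase of MAP kinases, went the other way, with 179 counts in RT-R and 53 in parental cells.

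Among 28 factors that act on ligand transcription or messenger RNA stability, all 28 were measured, 3 were called higher and 1 lower, and the median log2 ratio was 0.15. All measured genes together had 6.89% called higher and 3.97% lower. STAT3 stands in this list and in that of the adaptors. ETS1, a transcription factor of vessel and tumour cells, had 2704 counts in RT-R and 1019 in parental cells, a ratio of 2.38 (2.21 to 2.56). ATF4, the stress-response factor, had a ratio of 2.34 (2.26 to 2.43), and ZFP36, which destabilises AU-rich messages, one of 2.57 (1.40 to 4.98). EGLN3, a prolyl hydroxylase that marks hypoxia-inducible factors for decay, had 18 counts in RT-R and 75 in parental cells and was 4.65-fold lower (2.75 to 8.26). ZFP36 passed the count minimum only through the RT-R library, where it is high, and EGLN3 only through the parental one. HIF1A and EPAS1, which encode hypoxia-inducible factors, had log2 ratios of 0.25 and 0.54 and were not called.

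Extracellular binders and modulators of vessel growth held the widest spread. Of 25 genes, 19 were measured, 4 were called higher and 3 lower, and the median was 0.07. By comparison, 6.89% of all measured genes were called higher and 3.97% lower. ADM, the vasoactive peptide adrenomedullin, had 2207 counts in RT-R and 622 in parental cells, a ratio of 3.18 (2.91 to 3.48). SPARC, which binds PDGF and is named after its values were seen, had 28 counts in RT-R and 8 in parental cells. ESM1 (382 counts in RT-R, 0 in parental cells) and THBS2 (187 and 2) were the other genes called higher. ESM1, THBS2 and SPARC passed the count minimum only through the RT-R library, where they are high. The count of genes called higher in this list is therefore a description. APLN, the vessel peptide apelin, had 30 counts in RT-R and 214 in parental cells and was 7.96-fold lower (5.41 to 12.1). It lies on the X chromosome, where the median log2 ratio of 424 measured genes was -0.78. EFEMP1, fibulin 3, was 2.62-fold lower (2.03 to 3.42), and TIMP3, a metalloproteinase inhibitor that also binds KDR, was 2.02-fold lower (1.89 to 2.17).

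**Figure D5:**
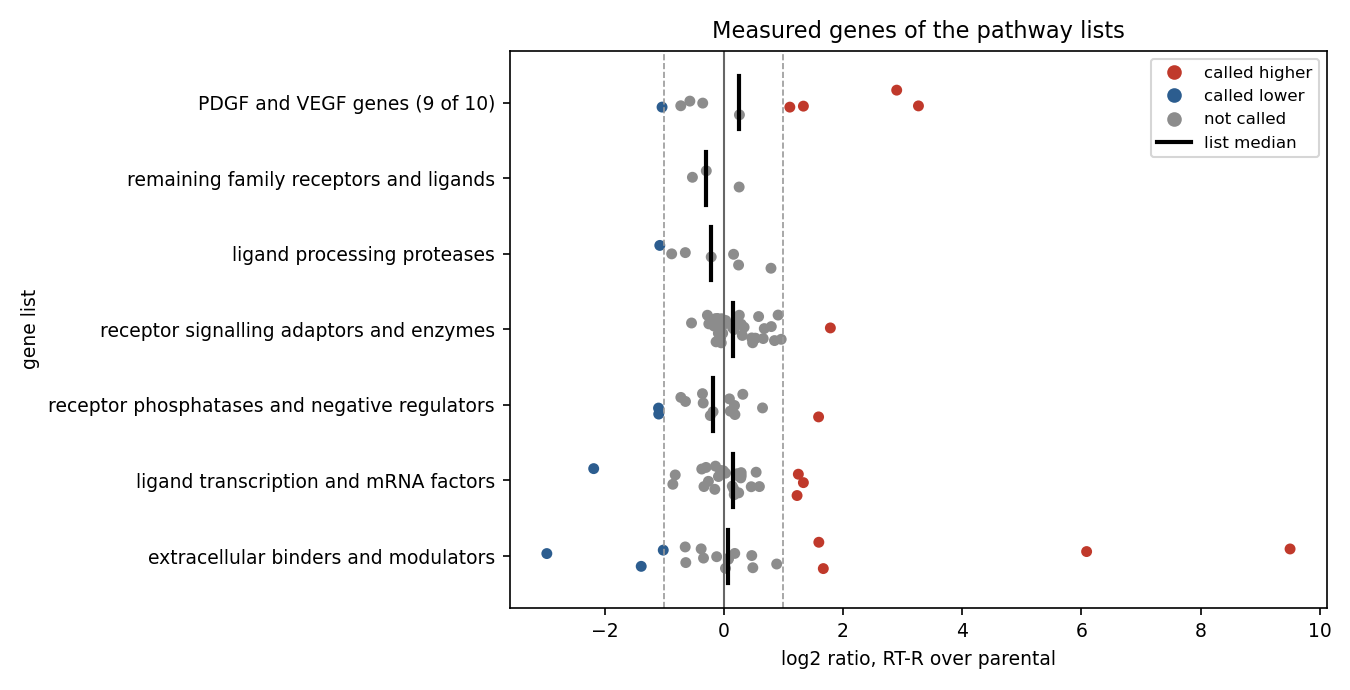
Log2 ratio of RT-R over parental for each measured gene of the pathway lists, red called higher, blue lower, grey not called, with dashed lines at 2-fold and black bars at list medians. Medians lie between -0.29 and 0.26, and the point at the far right is ESM1, which had 0 parental counts, so that its log2 ratio rests on the pseudocount.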

How the data were processed

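Total RNA (500 ng) from RT-R-MDA-MB-231 and MDA-MB-231 cells was made into Lexogen QuantSeq 3' tag libraries, 1 per line, per the labels' protocols. The authors' deposited tables hold raw counts per symbol, without normalization. The submitters' processing notes name bcl2fastq 2.20.0.422, Bowtie2, bedtools and hg19. Annotation, strand setting and treatment of multiply mapping reads are not given in the sources used. Reads from antisense partners annotated in GENCODE release 29 at PDGFB, PDGFC, PDGFD, VEGFA and VEGFC therefore cannot be told apart.

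Each table had 25737 rows, and 286 repeated symbols were summed to give 24462. Libraries were scaled by TMM (edgeR 4.0.16, R 4.3.3, used for scaling alone), which made the RT-R library 1.12 times the parental one in size. Log2 ratios used scaled counts plus a pseudocount of 0.5. Ratio intervals are exact conditional (Clopper-Pearson) 95% intervals and level intervals exact Poisson ones (scipy 1.17.1, Python 3.11.15). Ratios between genes carry an exact conditional odds ratio interval. A count of 0 was set at 3 counts for a bound. Calls were tested on simulated libraries that held counting error alone, so that test says nothing about differences between cultures. Neighbours were up to 15 measured genes on each side in the RefSeq order of GRCh38.p14. The genes named are the 10 members, the remaining family genes, and of each other list up to 3 called genes in each direction ranked by the interval bound nearest to 1. Some further genes were named after their values were seen. Members and lists were chosen with earlier results of these data known. Alternatives were other scalings (total counts, the upper quartile, DESeq2 1.42.0 median of ratios), a minimum of 100 counts or none, limits of 1.5-fold, 4-fold or fold without an interval, a pseudocount of 5, the largest row of a repeated symbol, subtraction of neighbours, and list means.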

Additional observations from a re-analysis of the deposited data

How the results depend on the processing

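PDGFA, PDGFB, PGF and FLT1 were called higher under all 3 other scalings, and none of the 10 members changed direction under the alternatives tried for them. The call of PDGFRB as lower was the least firm. The number of members called lower was 0 with scaling by total counts or by the upper quartile, 0 with a minimum of 100 counts, 0 at 4-fold, and 2 at 1.5-fold, where PDGFC was added. At 4-fold, 2 members were called higher, PDGFB and FLT1. With a minimum of 100 counts FLT1 was no longer measured. Over all measured genes, 356 were called higher and 265 lower with a minimum of 100 counts, 1734 and 1501 at 1.5-fold, and 292 and 67 at 4-fold. Against its chromosomal neighbours PDGFA had a log2 ratio of 1.66. FLT1 and PDGFD, which had few counts, moved further with a pseudocount of 5. FLT1 then had a log2 ratio of 2.06, where the main pseudocount of 0.5 gave 3.27, and PDGFD had one of 0.941. The median log2 ratio of the 9 measured members, 0.26, was 0.68 with no count minimum and 0.69 as a mean. That of the ligand processing proteases changed sign, from -0.21 to 0.16 with no minimum, and the mean of the extracellular binders was 0.71. NRP2, which is no member, had a log2 ratio of 0.26 and of -0.22 against its chromosomal neighbours. The other scalings moved the median of all genes by at most 0.043. No paired analysis was possible because each line has 1 library. With 1 library per line, the spread between cultures is unknown, and depth limits PDGFD, KDR and FLT1 to wide or open intervals.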
